A study of Mus musculus with 6 samples.

Results

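Chemokines and their receptors were read in the lungs of aged mice as 67 of the 31054 features of each count matrix. The rule goes by gene name and takes every Ccl, Ccr, Cxcl or Cxcr gene with a number, together with Cx3cl1, Cx3cr1, Xcl1, Xcr1 and Ackr1 to Ackr4. The 67 rows carry 62 distinct symbols and comprise 44 ligand rows, 19 receptor rows and 4 atypical receptor rows. Of these rows 6 had 0 UMIs in all retained cells, 5 had fewer than 100 and 56 had 100 or more, and 55 passed the filter on low counts in at least 1 cell type. Ccl19, Ccl21a, Ccl21b, Ccl21c and Ccl27 have near-identical copies in the genome, so their split between rows is uncertain. Of the 67 rows, 60 were placed on GRCm38 by GENCODE, 14 each on chromosomes 9 and 11 and 10 on chromosome 5, where the families lie in clusters. Among genes the results turn on, Ccl5 lies at chr11:83525778-83530518 on the minus strand, Ccr1 at chr9:123962124-123968692 on the minus strand, Ackr2 at chr9:121898355-121911074 on the plus strand and Cxcl1 at chr5:90891241-90893115 on the plus strand.

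Chemokines are small secreted proteins that direct the movement of cells carrying the matching receptor. Their receptors couple to inhibitory G proteins, and the atypical receptors Ackr1 to Ackr4 bind chemokines without that coupling, so that they scavenge or transport them. In the lung, stromal and epithelial cells, macrophages and lymphocytes make different ligands, and leukocytes of each kind carry their own receptors.

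The study compared 3 p16-DTR-labelled libraries with 3 control libraries, each from the lung of 1 male C57BL/6 mouse aged 21 months. Both groups carried p16-CreERT2, a tamoxifen-activated Cre recombinase driven from the p16 gene (Cdkn2a). The p16-DTR group also carried R26-LSL-DTR, which places a diphtheria toxin receptor behind a stop that Cre removes. Both groups received tamoxifen for 5 days and, after an interval of 2 weeks, diphtheria toxin for 5 days, and lungs were taken 2 weeks later. The tissue was digested enzymatically, and 20000 CD45- and 9000 CD45+ cells were mixed per library, so the balance of leukocytes to other cells was set by the sort. Each label names a separate mouse, and nothing in the labels gives a cage, litter or processing day.

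The libraries held 13482 to 17332 barcodes and 254200305 to 344421685 UMIs, and 85386 cells were retained in all. Of the 93313 distinct barcodes, 1055 occurred in more than 1 library. In counts summed over all retained cells, Cdkn2a stood at 6.84, 8.41 and 7.21 counts per 1000000 UMIs (CPM) in the p16-DTR-labelled libraries and at 1.18, 2.56 and 2.69 in the controls. The level of the targeted gene was therefore higher, not lower, in the p16-DTR-labelled libraries, and the number of p16-expressing cells was not tested. Every direction below holds for the libraries as labelled. The tdTomato entry had 65 to 84 UMIs in the p16-DTR-labelled libraries and 0 in each control. No pair of libraries of 1 group agreed within sampling noise, as 1 library deposited again would (chi-square per degree of freedom at least 79.9), so each was counted as 1 sample.

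Cells were assigned to types by marker gates that contained no chemokine or receptor gene, and 68183 cells (79.9%) received a type. Levels are CPM of the UMIs summed per library and type. UMIs from the 3' end are not scaled by gene length, so a level is compared only with levels of the same gene. Of the 56 members with 100 or more UMIs, 27 had a type of highest mean level whose range over the 6 libraries lay wholly above that of the next type, and for 29 the ranges overlapped. For 32 members, 1 type held most of the gated UMIs.

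**Figure D1:**
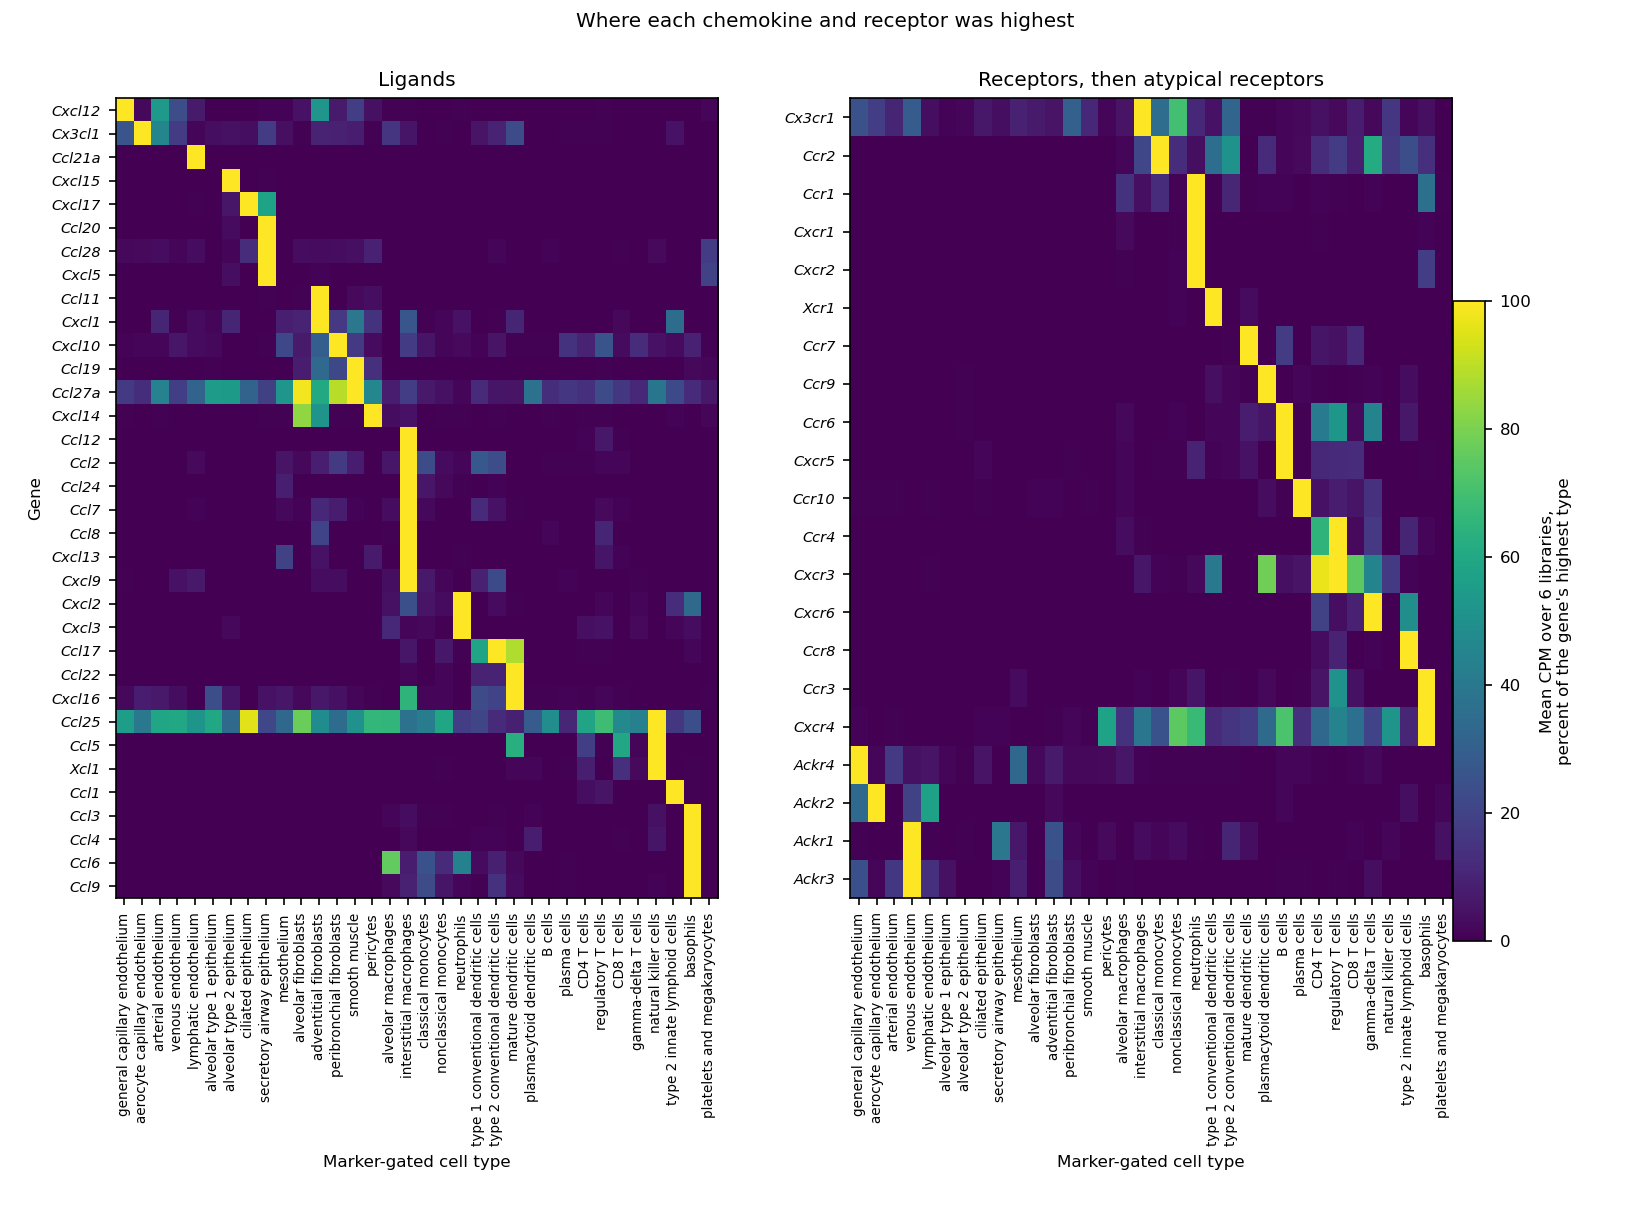
Mean level of 55 members with 100 or more UMIs (rows) in 34 marker-gated types (columns), as a percentage of that gene's highest type, over 6 libraries. Most ligands and receptors show 1 bright cell, while Ccl25 and Cxcr4 are spread over many types.

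Among the homeostatic ligands, Ccl21a, which draws Ccr7-bearing lymphocytes and dendritic cells toward lymphatic vessels, was at 22023 CPM ± 2011 (SD, n = 6) in lymphatic endothelium. The next type reached 30.8 CPM. Its receptor Ccr7 was highest in mature dendritic cells at 3620 CPM ± 520 (34 cells in all), above B cells at 625 ± 53.3 (n = 6). Cxcl12, which retains and guides Cxcr4-bearing cells, was highest in general capillary endothelium at 680 CPM ± 83.3 (n = 6). Arterial endothelium followed at 367 ± 239, with overlapping ranges. Cxcr4 was broad, at 580 CPM ± 173 in basophils, 435 ± 74.1 in nonclassical monocytes and 415 in B cells, and the first 2 did not separate. Ackr3, the scavenger of Cxcl12, was highest in venous endothelium at 648 CPM ± 102, above general capillary cells at 159 ± 22.8 (n = 6).

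By mean level, the inflammatory ligands named in this paragraph were highest in macrophages, stroma or granulocytes. Others, such as Ccl5 and Ccl20, were highest elsewhere and are given below. Ccl2 and Ccl7, ligands of Ccr2 on classical monocytes, were highest in interstitial macrophages at 497 CPM ± 199 and 328 ± 161 (n = 6). The largest share of gated UMIs lay elsewhere, in classical monocytes for Ccl2 (32.7%) and in adventitial fibroblasts for Ccl7 (42.2%). Ccr2 itself was highest in classical monocytes at 1205 CPM ± 193, above gamma-delta T cells at 743 ± 127. Ccl8, Ccl12, Ccl24, Cxcl9 and Cxcl13 were also highest by mean in interstitial macrophages, a type of 311 cells, but only for Ccl12 did the range over libraries lie above that of the next type. Adventitial fibroblasts held most of the gated Ccl8 UMIs (64.4%) and 42.0% of those of Cxcl13. Cxcl2, a neutrophil attractant, was highest in neutrophils themselves at 9201 CPM ± 1764, and its receptor Cxcr2 reached 1209 ± 114 there against 222 ± 69.3 in basophils. Cxcl1, the other main Cxcr2 ligand, was highest in adventitial fibroblasts at 380 CPM ± 182. The ranges of Cxcl1 and Cxcl2 overlapped those of the next type. Ccl3 and Ccl4, which attract monocytes and T cells, were highest in basophils at 12910 CPM ± 2894 and 24734 ± 5219 (350 cells), more than in any other gated type.

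Of the ligands that lymphocytes make, Ccl5 was at 9709 CPM ± 1508 in natural killer cells, overlapping mature dendritic cells at 6102 ± 2293, with CD8 T cells at 5770 and holding 59.1% of its gated UMIs. Xcl1 was highest in natural killer cells at 335 CPM ± 65.7, and Xcr1, its receptor, in type 1 conventional dendritic cells at 315 ± 24.1. Cxcr5, the receptor that brings B cells to Cxcl13, was highest in B cells at 264 CPM ± 19.0, and Cxcr6, the receptor of Cxcl16, in gamma-delta T cells at 1000.5 ± 104. Among epithelial ligands, Cxcl15, a ligand named lungkine for its tissue, was at 7739 CPM ± 478 in alveolar type 2 cells and Cxcl17 at 352 ± 46.9 in ciliated cells, the latter overlapping secretory airway cells. Of the fractalkine pair, Cx3cl1 was highest in aerocytes, the large gas-exchange capillary cells, at 136 CPM ± 24.4. Cx3cr1 was highest in interstitial macrophages at 425 ± 101 and nonclassical monocytes at 298 ± 38.4, with overlapping ranges. General capillary cells held the largest share of gated UMIs of both genes, 49.6% for Cx3cl1 and 36.4% for Cx3cr1.

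Group differences were tested by edgeR in the 18 types with at least 50 cells in every library. The members gave 400 tests, of which 19 (4.75%) passed an adjusted p of 0.05, against 0.907% of all 209354 gene tests. In the p16-DTR-labelled libraries 9 of them were higher and 10 lower, against 0.377% and 0.53% of all tests. The family was picked with earlier results of these data known, so these shares are a description. The calls involved 16 genes and 7 types. At an unadjusted p under 0.05 the shares were 31.3% of member tests and 13.6% of all tests (6.49% higher and 7.08% lower). DESeq2 called 39 of the member tests, against 2.56% of all tests. In 11 types no member passed edgeR's test. The share of all genes called there was 1.19% in aerocytes, 0.316% in lymphatic endothelium, 0.102% in ciliated cells, 0.0305% in pericytes, 0.00798% in B cells and 0.571% in natural killer cells, and 0% in the other types. Summed over all cells, edgeR called 0 of 56 members and 0% of all genes. In that sum 19 members had an unadjusted p under 0.05, against 22.3% of all genes, and DESeq2 called 14, against 11.2% of all genes. In bulk sums of this kind fewer cells of a type and less RNA per cell cannot be told apart.

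The largest number of calls fell in T cells with a Cd4 UMI, no Cd8a or Cd8b1 UMI and no regulatory T cell call, termed Cd4-gated T cells here. This gate held 1613 cells, and 9 of its 30 tested members passed, against 5.7% of all its genes. Higher were 6 members, among them the ligands Ccl5, Xcl1 and Ccl1 and the receptors Cxcr3 and Cxcr5, against 2.53% of genes. Lower were 3 receptors, Ccr1, Ccr4 and Cxcr6, against 3.17% of genes. Among the 10 genes that most set this gate apart, 2 came from its own marker list and 3 from the regulatory T cell list (Cd4 and Trac stand on both), so it is called by its rule.

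Ccl5, which recruits T cells and monocytes, was at 3584, 3775 and 1997 CPM in the p16-DTR-labelled libraries and at 305, 540 and 594 CPM in the controls. The groups did not overlap, and the log2 difference was 2.67 ± 0.30 (SE, adjusted p = 0.00301). Cells with a Ccl5 UMI made up 46.2% ± 3.12 against 14.8% ± 3.02 (SD, n = 3) after each cell was thinned to 5000 UMIs. The exact two-sided permutation test gave p = 0.1, the smallest value that 3 against 3 libraries allow. In B cells, a type that should lack Ccl5, the share was 3.72% and 2.11%, with median depths of 13921 and 12908 UMIs. The unthinned shares pooled over libraries were 51.9% and 19.4%, and median depths in the gate were 13563 and 15751 UMIs.

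Cxcr3, the receptor through which interferon-induced ligands call type 1 T cells, stood at 135, 142 and 204 CPM in the p16-DTR-labelled libraries against 90.9, 80.3 and 81.5 (log2 difference 0.91 ± 0.15, adjusted p = 0.0104). Every library labelled p16-DTR was above every control for this gene. Xcl1, which attracts cross-presenting dendritic cells, was at 23.9, 38.0 and 74.2 CPM against 10.0, 11.4 and 12.0 (2.02 ± 0.37, adjusted p = 0.0166). One cell held 30.4% of the Xcl1 UMIs of the p16-DTR-labelled libraries. Cxcr5, which marks follicular helper T cells as well as B cells, was at 32.2, 63.2 and 32.1 CPM against 20.01, 21.0 and 14.0 (1.21 ± 0.28, adjusted p = 0.0433). Ccl1, the ligand of Ccr8, rested on 7 cells against 4 cells with a UMI, at 8.23 CPM ± 1.99 against 1.16 ± 1.10 (SD, n = 3, adjusted p = 0.0377). The thinned shares of cells with a Ccl1 UMI overlapped, at 0.745% ± 0.268 against 0.330% ± 0.312 (SD, n = 3). Both Ccl5 and Cxcr3 passed in all 6 fits that left out 1 library. The calls of Xcl1, Cxcr5 and Ccl1 held in 3, 2 and 2 of 6. The highest adjusted p were 0.0630 for Xcl1 without control replicate 1, 0.132 for Cxcr5 without control replicate 3 and 0.12005 for Ccl1 without p16-DTR replicate 3. Xcl1 was also lost without control replicate 2 or 3. Cxcr5 was also lost without p16-DTR replicate 2, control replicate 1 or 2, and Ccl1 without p16-DTR replicate 1 or 2 or control replicate 2. The log2 difference of Ccl1 was 2.62, and 3.42 without control replicate 3.

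Of the 8 natural killer cell markers, 7 had a higher mean in the Cd4-gated T cells of the p16-DTR-labelled libraries. Their summed level was 277 to 400 CPM there against 171 to 202 CPM in the controls, and 14025.5 CPM in natural killer cells themselves. The part of these transcripts in the Ccl5 and Xcl1 differences was not tested.

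The 3 members that fell were receptors. Ccr1, an inflammatory receptor that neutrophils carry at high level, was at 0, 1.14 and 1.69 CPM in the p16-DTR-labelled libraries and at 22.1, 15.5 and 13.8 CPM in the controls. Its log2 difference was -3.97 ± 0.48 (adjusted p = 0.00406), and -4.58 without p16-DTR replicate 3 and -3.17 with predicted doublets kept. Over each group there were 13 UMIs in 12 cells against 223 UMIs in 83 cells, and the thinned share was 0.427% ± 0.469 against 4.76% ± 1.31. In B cells that share was 2.06% and 1.93%. Neutrophil markers summed to 54.3 to 83.1 CPM against 83.2 to 152 CPM in the gate, although 6 of 8 had a higher mean, and their part was not tested. Ccr4, the receptor for Ccl17 and Ccl22, was at 34.1, 22.3 and 21.3 CPM against 57.4, 70.4 and 65.9 (-1.38 ± 0.18, adjusted p = 0.00499). Cxcr6, which holds T cells in the lung through Cxcl16, was at 174, 127 and 152 CPM against 231, 273 and 206 (-0.67 ± 0.13, adjusted p = 0.0228). The groups did not overlap for any of the 3. Markers of type 2 innate lymphoid cells, which also carry Cxcr6, summed to 1035 to 1283 against 1480 to 1607 CPM in the gate, with 4 of 8 higher and 4 lower. Those of gamma-delta T cells, the type of highest Cxcr6 level, overlapped at 24.8 to 137 against 56.1 to 95.7 CPM. The part of either list was not tested. Ccr1 and Ccr4 passed in all 6 fits without 1 library and Cxcr6 in 2 of 6, those without p16-DTR replicate 1 or control replicate 3 (adjusted p up to 0.0778). Ccr6, the receptor of Ccl20 on interleukin-17-producing T cells, was at 40.4, 1.36 and 5.71 CPM against 61.8, 110 and 52.2 and did not pass (adjusted p = 0.115).

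**Figure D2:**
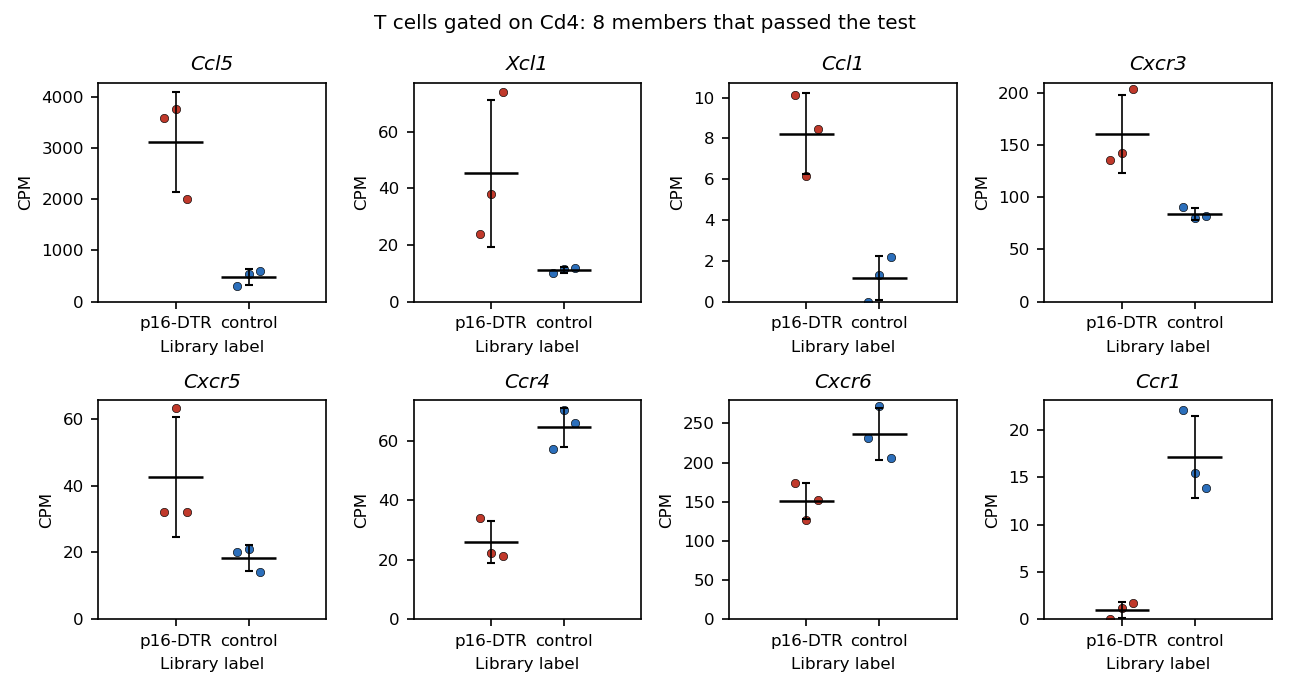
CPM (vertical axes, each from 0) of 8 of the 9 members called in Cd4-gated T cells, 1 point per library, with group mean and SD as bars. In each panel the 3 p16-DTR-labelled libraries and the 3 controls do not overlap, with Ccr1 at 0 to 1.69 against 13.8 to 22.1 CPM. The panels were chosen by the test on these same values, so the lack of overlap is no further evidence.

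Genes known to respond to tissue dissociation moved with these calls in the gate. Of 12 tested 4 were called, all lower, against 3.17% of all genes of the gate. They were Atf3, Egr1, Nr4a1 and Junb, at log2 differences of -1.31, -1.40, -0.84 and -0.40. Their part was not tested. The make-up of the gate moved as well. Cells with a UMI of Il17a, Il17f or Il23r, genes of the interleukin-17 programme, were 15.7%, 2.07% and 5.0% of it in the p16-DTR-labelled libraries and 39.6%, 46.01% and 33.6% in the controls. This split was chosen after the values were seen and is given without a test. In the controls the cells with such a UMI held Ccr1 at 38.5 CPM ± 11.1, Ccr4 at 111 ± 4.48, Ccr6 at 167 ± 43.1 and Cxcr6 at 453 ± 15.6 (SD, n = 3). The control cells without one held these at 2.43, 31.0, 6.24 and 83.0 CPM.

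Among cells with such a UMI, which numbered 28, 6 and 17 in the p16-DTR-labelled libraries and 80, 127 and 110 in the controls, Ccr1 was at 0, 13.4 and 3.15 against 50.6, 28.9 and 36.0 CPM. Ccr4 was at 104, 40.3 and 50.4 against 106, 115 and 112 CPM in them, and Cxcr6 at 435.5, 276 and 236 against 456, 466 and 435.6 CPM. These values were lower in the p16-DTR-labelled libraries without overlap, though for Ccr4 and Cxcr6 the first of them lay close to the lowest control. Among cells without such a UMI, Cxcr6 stood the other way round, at 110.2, 122 and 146 CPM in the p16-DTR-labelled libraries against 79.6, 91.7 and 77.6 CPM. Ccr1 overlapped between the groups there, at 0, 0.706 and 1.59 against 2.95, 2.91 and 1.42 CPM. Ccr4 remained lower, at 17.2, 21.7 and 19.3 CPM against 24.6, 28.6 and 39.8. Ccl5 remained higher, at 4365, 3894 and 2112 CPM against 508, 1042 and 908. Cxcr3 did too, at 138, 145 and 207 CPM against 127, 116 and 108. Cxcr5 overlapped between the groups in these cells, at 33.3 to 65.4 CPM against 21.9 to 39.9.

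**Figure D3:**
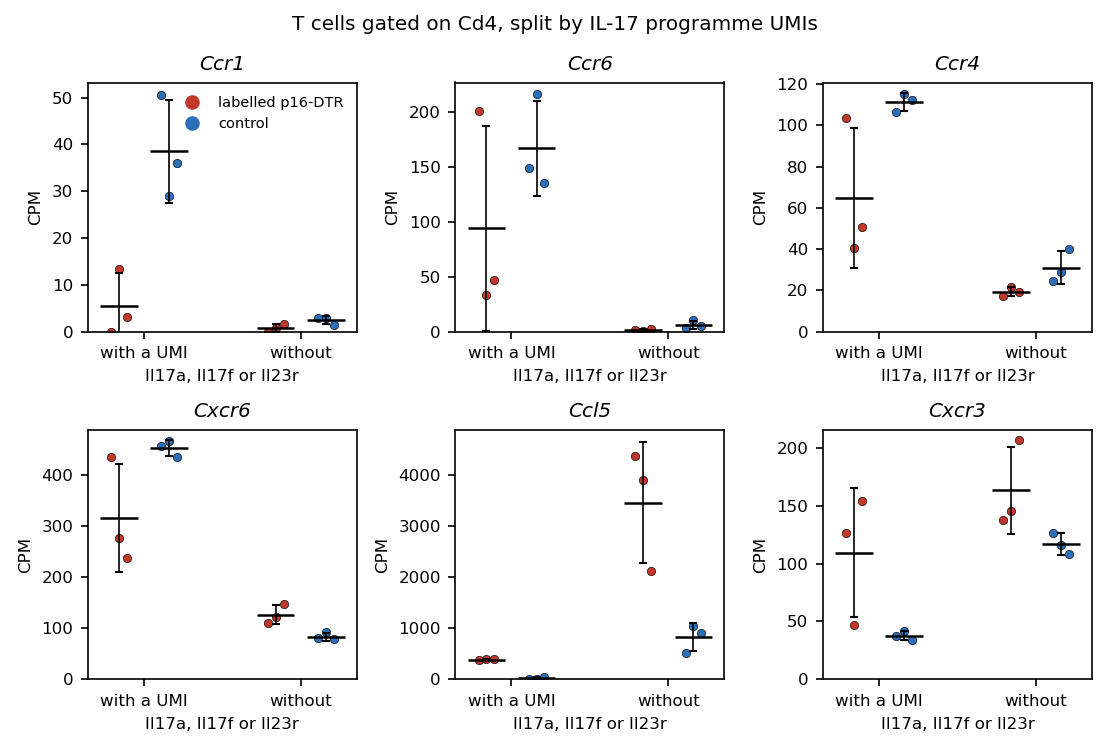
CPM of 6 members in Cd4-gated T cells with or without a UMI of Il17a, Il17f or Il23r (horizontal axis), 1 point per library with group mean and SD. In the controls Ccr1 and Ccr6 are higher in the cells with such a UMI (38.5 against 2.43 and 167 against 6.24 CPM), and Cxcr6 is higher in the controls as a whole gate but lower in them among cells without one.

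CD8 T cells, 2303 in number, had 2 calls among 28 members tested, against 0.324% of all genes. Ccl4 rose from 78.4, 85.0 and 73.5 CPM in the controls to 135, 149 and 106 CPM (log2 difference 0.73 ± 0.12, adjusted p = 0.0492). Ccl9, a monocyte ligand, was at 1.42, 1.18 and 2.73 CPM against 12.8, 8.15 and 8.46 (-2.37 ± 0.36, adjusted p = 0.0476). It lay in 32 cells against 30 cells. In the p16-DTR-labelled libraries 1 cell held 28.8% of the UMIs, and in the controls 1 cell held 28.0%. The thinned shares of cells with a Ccl9 UMI overlapped, at 0.871% ± 0.204 against 1.24% ± 0.462 (SD, n = 3). Pf4 and Cd74 fell in the same gate by 3.79 and 2.78 on the log2 scale. These 2 genes were singled out after their values were seen. Markers of classical monocytes, which hold most of the gated Ccl9 UMIs, overlapped in the CD8 gate at 803 to 1310 against 899 to 1156 CPM, with 4 of 8 higher. The part of these genes in the Ccl9 difference was not tested. With predicted doublets kept, the Ccl9 difference was -1.05 (adjusted p = 0.510). The fall was not general, as Ccl9 was higher at an unadjusted p under 0.05 in 3 of 9 types tested, without a call. These were alveolar fibroblasts, classical monocytes and natural killer cells, with log2 differences of 0.78, 0.21 and 0.92. The Ccl4 call was lost with doublets kept (adjusted p = 0.104), with library size alone (0.0630) and with the stricter cell filter (0.0508). Markers of basophils, the type of highest Ccl4 and Ccl9 level, were at 2.31 to 3.32 against 0.874 to 1.303 CPM in the CD8 gate, with 8 of 8 higher, and their part was not tested. Leaving out p16-DTR replicate 3 kept each of these calls, and leaving out any of the other 5 libraries ended it (adjusted p up to 0.195 for Ccl4 and 0.167 for Ccl9, both without p16-DTR replicate 1). Cxcr6 was at 124, 129 and 96.7 CPM against 76.0, 50.1 and 67.2 and missed the threshold (adjusted p = 0.067).

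Whether a difference itself differed between neighbouring types was tested in 7 pairs of types. Of 240 member tests 6 passed, against 0.402% of all genes. Between CD8 and Cd4-gated T cells 4 of 33 passed (1.21% of genes), and between Cd4-gated T cells and B cells 2 of 39 (1.2% of genes). Cxcr6 had opposite signs, with log2 differences of 0.84 in CD8 and -0.67 in Cd4-gated T cells (adjusted p of the gap 0.0233). Ccl5 had 0.32 in CD8 and 2.67 in Cd4-gated T cells (adjusted p = 0.00815). Ccr1 had -3.97 in Cd4-gated T cells and 0.75 in B cells (adjusted p = 0.00639). By edgeR no member passed between aerocytes and general capillary cells (0.327% of genes), venous and general capillary cells (0.244%) or in the other pairs (0%). DESeq2 called Ackr2 between aerocytes and general capillary cells (adjusted p = 0.0147).

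Cxcl1 was the stromal ligand with the most calls. It binds Cxcr2, draws neutrophils and is induced through NF-kB and by interleukin-17. Its neighbour Cxcl2 binds the same receptor, and the promoters of both are shown because at an unadjusted p under 0.05 Cxcl1 was lower in 8 of 9 types and Cxcl2 higher in 7 of 17, together with that of Ccl20, the third ligand discussed here. Each is the 250 bases before the RefSeq start on the plus strand of GRCm38.p6, chr5:90890995-90891244, chr5:90903649-90903898 and chr1:83116516-83116765. Capitals mark matches, on either strand, to the consensus named kappa B, and adjoining matches overlap.
Cxcl1: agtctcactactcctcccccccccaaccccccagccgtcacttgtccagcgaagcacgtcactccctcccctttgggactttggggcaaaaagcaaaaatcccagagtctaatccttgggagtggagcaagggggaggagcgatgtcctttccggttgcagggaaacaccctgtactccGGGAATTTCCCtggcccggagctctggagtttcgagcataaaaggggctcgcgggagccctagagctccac
Cxcl2: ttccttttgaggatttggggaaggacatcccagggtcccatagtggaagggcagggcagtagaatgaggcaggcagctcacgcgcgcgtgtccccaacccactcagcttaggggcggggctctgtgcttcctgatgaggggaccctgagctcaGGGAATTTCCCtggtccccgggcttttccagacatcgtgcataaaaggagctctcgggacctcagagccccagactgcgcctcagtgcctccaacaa
Ccl20: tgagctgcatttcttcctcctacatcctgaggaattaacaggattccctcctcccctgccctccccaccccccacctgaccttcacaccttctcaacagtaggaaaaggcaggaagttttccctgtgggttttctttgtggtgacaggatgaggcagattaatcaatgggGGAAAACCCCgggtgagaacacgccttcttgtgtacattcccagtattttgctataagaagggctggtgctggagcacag
A kappa B match stood on either strand in 7.25% of 32851 RefSeq promoters of the same length and in 11 of the 53 promoters found for members (46 symbols matched). A match is a description of letters and not evidence of binding.

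Cxcl1 fell in 3 types. In alveolar fibroblasts it was at 14.5, 15.6 and 16.1 CPM in the p16-DTR-labelled libraries against 95.3, 50.3 and 37.2 CPM (log2 difference -1.96 ± 0.31, adjusted p = 0.0464). It was the only call among 38 members there, against 1.06% of all genes. In peribronchial fibroblasts it was at 22.3, 28.9 and 34.0 CPM against 96.3, 139 and 54.2 (-1.76 ± 0.32, adjusted p = 0.0349), the only call among 15 members, against 0.756% of genes. The thinned share of alveolar fibroblasts with a Cxcl1 UMI was 3.13% ± 0.478 against 10.6% ± 4.65 (SD, n = 3). In B cells that share was 0.151% and 0.615%. In venous endothelium Cxcl1 was at 0.298, 0.340 and 0.366 CPM against 6.61, 1.98 and 1.80 (-3.25 ± 0.73, adjusted p = 0.0465). This call rested on 6 UMIs in 6 cells against 73 UMIs in 41 cells. Pooled over libraries, the thinned venous share was 0.102% against 1.15%, low like that of B cells. In both types the share was lower in the p16-DTR-labelled libraries. The part of free RNA in the venous call was not tested. Without control replicate 1 the venous difference was -2.42.

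Cxcl1 was lower at an unadjusted p under 0.05 in 8 of the 9 types in which it could be tested, the 3 above among them. In adventitial fibroblasts, its main source, the level was 240, 157 and 377 CPM against 673, 478 and 357, and the groups overlapped (adjusted p = 0.267). In alveolar type 2 cells it was at 8.62, 1.82 and 17.9 CPM against 130, 65.3 and 14.4. Pericytes were the exception, at 32.0, 48.5 and 95.5 CPM against 57.7, 59.6 and 42.8. Over all cells the levels were 20.6, 14.8 and 19.6 CPM against 122, 47.7 and 38.9, and the first control replicate was the highest library. Adventitial fibroblasts held 61.5% of the gated Cxcl1 UMIs and numbered 394, 379 and 263 against 942, 350 and 485. The part of these numbers in the levels over all cells was not tested. Without control replicate 1 the call held in alveolar fibroblasts (adjusted p = 0.0365) and was lost in peribronchial fibroblasts (0.129) and venous cells (0.0735). The alveolar fibroblast call was otherwise kept only without control replicate 2 (other adjusted p up to 0.1602, without p16-DTR replicate 3). The peribronchial and venous calls were kept only without control replicate 3 (venous adjusted p up to 0.139, without p16-DTR replicate 1).

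Markers of adventitial fibroblasts, the main source, summed to 294 to 344 CPM in alveolar fibroblasts of the p16-DTR-labelled libraries and to 225 to 319 CPM in the controls, overlapping, with 4 of 8 markers higher. In peribronchial fibroblasts they were 2479 to 2972 against 3014 to 3473 CPM, with 3 of 8 markers lower. In venous cells they were 35.5 to 40.2 against 55.8 to 68.4 CPM, with 7 of 8 lower, and smooth muscle markers were 182 to 209 against 227 to 261 CPM, also with 7 of 8 lower. The part of these lists was not tested. Genes known to respond to tissue dissociation had 19 lower and 1 higher call in 245 tests (against 0.53% and 0.377% of all gene tests). Of the lower calls, 6 were in venous cells, 4 in Cd4-gated T cells and 3 in general capillary cells. The others were 4 in lymphatic endothelium and 2 in ciliated cells, types without a member call. None of the dissociation genes was called in alveolar or peribronchial fibroblasts. There the medians of that list were -0.27 and -0.08 (log2) against 0.01 and -0.004 for all genes. Genes of NF-kB feedback had 12 lower calls and no higher call in 177 tests (against the same shares of all tests), 4 of them in venous cells, where Nfkbiz was at 331 CPM ± 48.8 against 604 ± 101 (SD, n = 3). The part of digestion in these values was not tested.

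**Figure D4:**
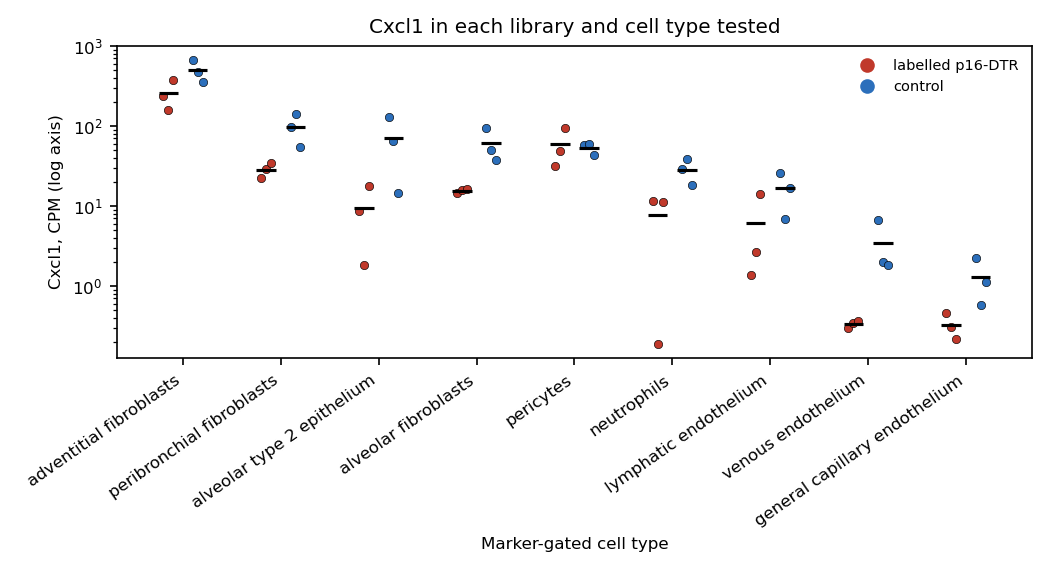
Cxcl1 in CPM (log axis) in the 9 types in which it could be tested, 1 point per library with group means as bars. The p16-DTR-labelled libraries lie below the controls without overlap in alveolar fibroblasts (14.5 to 16.1 against 37.2 to 95.3 CPM), while pericytes overlap.

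Cxcl2 was not called in any type. Its unadjusted p was under 0.05 with higher levels in 7 of the 17 types tested. In nonclassical monocytes it was at 384, 473 and 259 CPM in the p16-DTR-labelled libraries against 196, 152 and 211 (adjusted p = 0.369). In classical monocytes it was at 551, 654 and 546 CPM against 449, 369 and 300, and in neutrophils at 8687, 10862 and 11432 against 7915, 6791 and 9519 CPM. In general capillary cells it stood at 5.66 to 6.18 against 2.38 to 4.27 CPM, while in CD8 T cells the order of the means was reversed, at 6.22 to 20.9 against 8.74 to 123 CPM (adjusted p = 0.311). The level over all cells was 453 to 496 against 186 to 320 CPM. Neutrophils held 76.1% of the gated Cxcl2 UMIs, and they numbered 816, 544 and 592 against 665, 390 and 334. Ccl5 had higher values at an unadjusted p under 0.05 in 10 of 17 types, with 5.63 to 8.44 against 2.66 to 5.56 CPM in general capillary cells. In peribronchial fibroblasts Ccl5 was lower at that threshold, with a log2 difference of -2.81. Over all cells Ccl5 was at 331 to 518 against 153 to 342 CPM. CD8 T cells, with 59.1% of its gated UMIs, numbered 295, 473 and 653 against 233, 187 and 462. Ccl4 (6 of 13 types), Ccl6 (5 of 14) and Ccl3 (4 of 11) also recurred upward, and stood over all cells at 120 to 188, 215 to 304 and 62.3 to 93.9 CPM against 63.1 to 132, 128 to 193 and 22.8 to 70.3 CPM. Basophils held 71.9% of the gated Ccl4 UMIs and 74.2% of those of Ccl3, and the gated basophils numbered 88, 104 and 52 in the p16-DTR-labelled libraries against 40, 57 and 9 in the controls. The part of these cell numbers in the levels over all cells was not tested. The part of free RNA in the low levels was not tested.

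Ccl20, the ligand of Ccr6 and another target of interleukin-17, was the only member called in alveolar type 2 cells. There 1 of 17 members passed against 0.0988% of genes. It was at 0.253, 0 and 4.70 CPM in the p16-DTR-labelled libraries against 32.3, 60.8 and 105 CPM in the controls (log2 difference -5.21 ± 0.65, adjusted p = 0.0217). The difference was -8.77 without p16-DTR replicate 3, -4.60 without p16-DTR replicate 2 and -4.60 with 1 more marker per gate. These levels came from 3 of 303 cells against 8 of 371 cells, and 413 of the 1089 control UMIs lay in 1 cell. The thinned shares of cells with a UMI overlapped between the groups. DESeq2 gave an adjusted p of 0.105, and edgeR gave 0.111 and 0.0706 when the first or the second p16-DTR replicate was left out. The highest mean was in secretory airway epithelium, but in those 32 cells 1 cell held 1008 of the 1025 control UMIs. Secretory markers in the type 2 gate summed to 1803 to 10385 CPM against 1002 to 3384 CPM, overlapping, with 6 of 8 higher, and their part was not tested.

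Decoy receptors of the endothelium differed between the groups in some vessel types. Ackr2, which takes up and degrades inflammatory CC chemokines, rose in general capillary cells from 39.4, 46.4 and 48.4 CPM in the controls to 68.0, 63.6 and 93.3 CPM (log2 difference 0.79 ± 0.15, adjusted p = 0.0456). It rose in venous cells from 19.8, 21.9 and 24.3 to 39.5, 47.2 and 55.1 CPM (1.11 ± 0.14, adjusted p = 0.00872). In aerocytes, the type of its highest level, it was at 180, 184 and 187 against 167, 168 and 171 CPM, without overlap and without passing the adjusted threshold (0.16 ± 0.05, adjusted p = 0.141). In lymphatic endothelium, where Ackr2 is best known, it overlapped at 86.8 to 115 against 91.5 to 114 CPM. Leaving out each library in turn, the venous call passed in 6 of 6 fits and the general capillary call in 1 of 6, without p16-DTR replicate 2 (other adjusted p up to 0.121, without control replicate 1).

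The thinned share of venous cells with an Ackr2 UMI was 19.1%, 18.3% and 22.5% against 7.49%, 10.2% and 12.3%, and in B cells it was 0.804% and 0.922%. Aerocyte markers summed to 127 to 154 against 117 to 156 CPM in venous cells and to 480 to 526 against 451 to 545 CPM in general capillary cells, so they overlapped in both. Lymphatic markers were 1027 to 1179 against 635 to 830 CPM in general capillary cells, with 4 of 8 higher. In venous cells they were 2367 to 2661 against 1984 to 2417 CPM, with 5 of 8 higher. Their part in either call was not tested. Ackr4, the scavenger of Ccl19, Ccl21 and Ccl25, fell in general capillary cells from 38.8, 32.9 and 35.6 to 24.1, 24.2 and 23.4 CPM (-0.54 ± 0.06, adjusted p = 0.0230). The call was lost without p16-DTR replicate 1 (0.0572), p16-DTR replicate 3 (0.0712) or control replicate 3 (0.0565). Mesothelial markers, the next highest source of Ackr4, were 1.71 to 2.26 against 2.62 to 3.76 CPM there with 8 of 8 lower, and their part was not tested. With Ackr2 these were the 2 calls among 35 members in general capillary cells, against 2.13% of all genes. The dissociation genes Egr1, Ier2 and Btg2 fell in the same cells by 1.33, 0.65 and 0.61 on the log2 scale, and their part was not tested.

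Cx3cr1, the fractalkine receptor, fell in venous cells from 157, 135 and 166 to 84.6, 117 and 84.6 CPM (-0.66 ± 0.14, adjusted p = 0.0363). It passed without p16-DTR replicate 2 or control replicate 2, and not without any other library (adjusted p up to 0.121). It was 1 of 3 calls among 18 members in venous cells, against 3.1% of all genes. Its unadjusted p was under 0.05 with lower levels in 8 of 18 types, among them general capillary cells (75.7 to 107 against 114 to 138 CPM) and aerocytes (57.0 to 73.2 against 76.1 to 99.2 CPM). The fall was not limited to endothelium. The 8 types also held alveolar and adventitial fibroblasts, with log2 differences of -1.03 and -0.70, and peribronchial fibroblasts, alveolar type 2 cells and classical monocytes. In natural killer cells the order was the other way, at 67.1 to 87.5 against 45.4 to 65.7 CPM. Nonclassical monocyte markers in venous cells overlapped, at 935 to 955 against 921 to 982 CPM. Cx3cl1 had a higher level in aerocytes, at 145, 176 and 142 against 114, 107 and 134 CPM (adjusted p = 0.0685). In venous cells it had a lower one, at 21.0, 17.7 and 20.7 against 28.4, 26.5 and 27.9 CPM (adjusted p = 0.0535). Neither passed. Ackr3 overlapped in venous cells, at 575 to 793 against 583 to 765 CPM. Elsewhere Ackr3 was higher at an unadjusted p under 0.05 in 3 of 10 types, without a call. These were general capillary cells, aerocytes and peribronchial fibroblasts, with log2 differences of 0.28, 0.69 and 1.31. Ackr1, the receptor that carries chemokines across venules, also overlapped in venous cells, at 7.76 to 12.5 against 4.66 to 19.5 CPM.

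**Figure D5:**
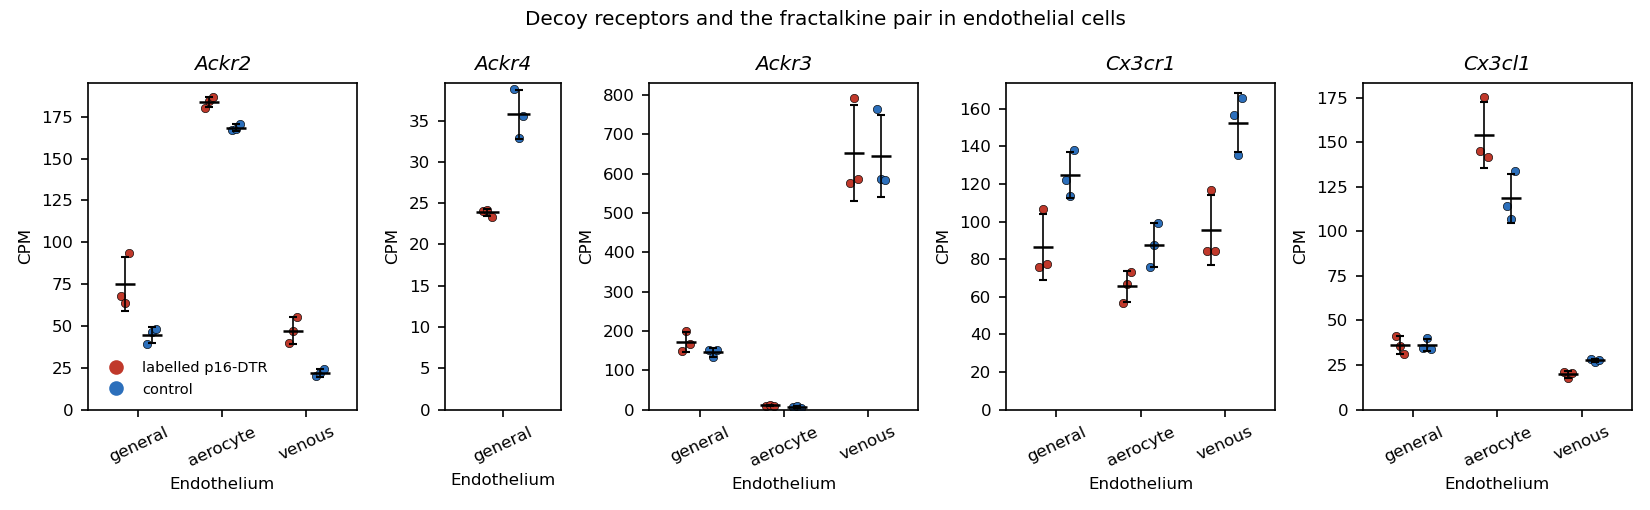
CPM of 5 members in general capillary, aerocyte and venous endothelium (Ackr4 in general capillary cells only), 1 point per library with group mean and SD. In all 3 types the points of the p16-DTR-labelled libraries lie above the controls for Ackr2 and below them for Cx3cr1, although neither passed in aerocytes and Cx3cr1 passed in venous cells alone.

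In classical monocytes, nonclassical monocytes and neutrophils no member passed, and basophils, with 9 cells in 1 library, were not tested. Ccr2 was lower at an unadjusted p under 0.05 in 5 of 11 types, with classical monocytes at 1079, 1131 and 1040 against 1558, 1294 and 1127 CPM (adjusted p = 0.440). Cxcr4 had the opposite order in classical monocytes, at 173, 154 and 190 against 93.0, 141 and 134 CPM. Neutrophil Cxcr1 was at 52.3, 38.0 and 57.4 against 21.4, 21.8 and 22.1 CPM (adjusted p = 0.251), while Cxcr2 was at 1218 to 1382 against 1086 to 1143 CPM. Of the 28, 24 and 26 members tested in classical monocytes, nonclassical monocytes and neutrophils, 11, 4 and 9 had an unadjusted p under 0.05, against 11.1%, 8.35% and 7.69% of all genes. DESeq2 called 3, 2 and 1, against 0.779%, 0.403% and 0.203% of all genes. In interstitial macrophages, with 27 to 108 cells per library, Ccl2 was at 330 to 436 against 339 to 845 CPM and Cxcl13 at 187 to 2080 against 191 to 856 CPM, both overlapping.

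Other axes differed by less than their spread or did not pass. In their type of highest level, Cxcl12, Ccl21a, Ccl11 and Ccr6 had log2 differences of 0.08, -0.12, -0.15 and 0.01 with standard errors of 0.12, 0.11, 0.20 and 0.15. Cxcl10, an interferon-induced Cxcr3 ligand, was at 71.7 to 408 against 201 to 352 CPM in peribronchial fibroblasts. Cxcl9 ranged from 0 to 211 against 2.91 to 404 CPM in interstitial macrophages. Ccr7 stood at 280, 316 and 396 against 497, 426 and 519 CPM in CD8 T cells (adjusted p = 0.155). Cxcl17, a mucosal ligand, was at 382, 372 and 420 against 320, 319 and 298 CPM in ciliated cells (adjusted p = 0.206). Cxcl16 had higher values at an unadjusted p under 0.05 in 5 of 13 types, with 17.8, 17.7 and 19.0 against 15.2, 14.7 and 13.6 CPM in alveolar fibroblasts. At that threshold it was lower in 2 types, venous endothelium and CD8 T cells, with log2 differences of -0.43 and -2.65.

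Genes acting below the receptors were read from a list of 25 signalling and desensitisation genes. Its 373 tests gave 5 higher and 4 lower calls, against 0.377% and 0.53% of all gene tests. Rgs2, a brake on G protein signals, fell in general capillary cells (22.0, 14.2 and 11.9 against 30.1, 33.9 and 34.6 CPM) and in Cd4-gated T cells (330 CPM ± 50.6 against 589.6 ± 83.2, SD, n = 3). Arrb1, the arrestin that uncouples receptors, rose in general capillary cells (184 ± 14.5 against 145 ± 2.67) and venous cells (211 ± 29.0 against 152 ± 10.2) and fell in Cd4-gated T cells (20.5 ± 4.68 against 39.6 ± 2.49). The list's medians over the 18 types lay between -0.01 and 0.13 on the log2 scale.

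Cell numbers per type were compared as shares of their side of the sort. Of the types with enough cells, 4 had groups that did not overlap. B cells were 19.9% ± 2.03 of the CD45+ side against 28.6% ± 0.224 (SD, n = 3), and general capillary cells 47.5% ± 5.50 of the CD45- side against 35.4% ± 7.82. Smooth muscle and pericytes were lower, at 0.603% against 0.905% and 0.794% against 1.46%. Each had an exact two-sided permutation p of 0.1, the smallest possible, and an adjusted p of 0.58.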

How the data were processed

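Single-cell 3' libraries (10x GEM-X) were made from 6 lungs. Per the submitters' processing notes, Cell Ranger 8.0.1 and mm10 were used, and the values the authors deposited are unnormalized UMI counts. Cells with at least 500 UMIs, 300 genes and at most 15% mitochondrial UMIs were kept, and 5770 predicted doublets (cells with the most simulated doublets among 50 nearest neighbours) were removed. A gate asked for UMIs covering 60% of a type's marker weight, a lead of 10 points over the next type and under 50% of the markers of any other lineage, and 2882 gated cells lay near the first limit. Summed counts were tested with edgeR 4.0.16 (quasi-likelihood, TMM, Benjamini-Hochberg over all genes of a type) in R 4.3.3; DESeq2 1.42.0 was an alternative. Differences between 2 types used an interaction with mouse as a term. The edgeR step was tested on simulated data. Alveolar and interstitial macrophages were not compared (4 alveolar macrophages in 1 library). Promoters and positions come from RefSeq and GENCODE on GRCm38.

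Members were named if called in any type, if their unadjusted p was under 0.05 in 1 direction in at least 3 types, or if listed as ligand or receptor of 1 of the main axes. Some items are not reported here. Members and lists were chosen with earlier results of these data known. Same-numbered libraries had deviations from their group means that correlated at 0.33, -0.03 and 0.30. Libraries of different numbers correlated at -0.40 to 0.11. The labels name no pairs, so the main fit took the libraries as unpaired. Whether same-numbered libraries shared a batch was not tested. The p-values measure the spread between these libraries, 1 mouse each.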

Additional observations from a re-analysis of the deposited data

Results flagged for a closer look

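The difference between the p16-DTR-labelled libraries and the controls was itself compared between neighbouring cell types. Of 240 interaction tests of members in 7 pairs of types, 6 passed, against 0.402% of all genes. Between CD8 and Cd4-gated T cells 4 of 33 members passed, against 1.21% of genes. Ccl5 had a log2 difference of 0.32 in CD8 and 2.67 in Cd4-gated T cells, and the gap of -2.35 ± 0.27 (SE) had an adjusted p of 0.00815. Cxcr6 had 0.84 in CD8 and -0.67 in Cd4-gated T cells, opposite directions, with a gap of 1.53 ± 0.22 (adjusted p = 0.0233). The Ccl5 gap passed in all 6 fits that left out 1 library and the Cxcr6 gap in 5, with an adjusted p of 0.0720 when p16-DTR replicate 2 was left out. For Xcl1 the differences were 0.30 and 2.02, with a gap of -1.63 ± 0.32 (adjusted p = 0.0422), a call that held in 1 of the 6 such fits, the one without p16-DTR replicate 1, and reached an adjusted p of 0.162.

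Between Cd4-gated T cells and B cells 2 of 39 members passed, against 1.2% of genes. Ccr1 had -3.97 in Cd4-gated T cells and 0.75 in B cells, and the gap of -4.78 ± 0.52 (adjusted p = 0.00639) held in all 6 fits without 1 library. For Ackr2 between aerocytes and general capillary cells (gap -0.57 ± 0.12) edgeR gave an adjusted p of 0.0981 and passed in 1 of the 6 fits without 1 library, while DESeq2 gave 0.0147. The lower share of cells with an interleukin-17 programme UMI in the Cd4 gate, given above, stands beside the 6 calls, and its part was not tested.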

How the results depend on the processing

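Against 19 member calls, RLE factors and library size alone each gave 19, doublets kept and a stricter cell filter 18, and 1 more marker per gate 19. DESeq2 called 39, no filter on low counts 99 (against 2.15% of all genes tested in that way), and adjustment over all types together 12. That adjustment ended 8 of the 19 calls, among them Xcl1 (adjusted p 0.0626), Cxcr6 (0.0775), Ccl1 (0.106) and Cxcr5 (0.116) in Cd4-gated T cells, Ackr2 in general capillary cells (0.0777), and Cx3cr1 (0.0775) and Cxcl1 (0.0947) in venous cells. Leaving out 1 library gave 10 to 15 calls, with 10 when control replicate 1 or p16-DTR replicate 1 was left out and 11 when it was p16-DTR replicate 2. With the replicate number as a block 16 calls were made, against 0.653% of all genes, and 6 of the 19 were lost: Ccl1 and Cxcr6 in Cd4-gated T cells (adjusted p 0.101 and 0.0678), Ackr2 and Ackr4 in general capillary cells (0.0665 and 0.0571), and Cx3cr1 and Cxcl1 in venous cells (0.0941 and 0.0510). Whether the numbers mark shared batches was not tested. Over all cells edgeR called 0 members under each alternative and DESeq2 14, against 11.2% of all genes. The 6 interaction calls became 45 with no filter and 3 to 8 without 1 library (3 when p16-DTR replicate 2, control replicate 1 or control replicate 3 was left out). No share of all genes is given here for these settings, so these counts cannot be set against a general change in calls. Each of the 56 members kept its type of highest level under other gates, doublets or cell filter. Types with shares that did not overlap numbered 4, or 5 to 12 without 1 library, and edgeR on cell numbers called 0. The cause of these changes was not tested. Directions reversed only among members that were not called, and their log2 differences are given here. For Ccr6 in B cells it was -0.0247 with library size alone, -0.00594 with doublets kept and -0.128 to 0.222 without 1 library. Without 1 library, Cxcl12 in general capillary cells ranged from -0.0876 to 0.173, Ackr3 in venous cells from -0.130 to 0.174 and Cxcl10 in peribronchial fibroblasts from -1.0003 to 0.1201. Ccl11 in adventitial fibroblasts ranged from -0.424 to 0.00624 and Ackr1 in venous cells from -0.676 to 0.181. Depth limits Ccl1, Ccl9, Ccl20 and venous Cxcl1, which rest on fewer than 50 cells per group with a UMI. Cxcl1 in venous cells had no value with 1 more marker per gate.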

Other observations

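Several members had their highest mean level in types too small for a test. For Ccl1, Ccr10, Ccl17 and Ccr4 the range over libraries overlapped that of the next type. Ccr8 was at 245 CPM ± 130 (SD, n = 6) in type 2 innate lymphoid cells, and its ligand Ccl1 was highest there too, at 129 ± 99.9. That type held 45 cells, 5 to 10 per library, of which 34 lay within 0.05 of the share of marker weight its gate asks for. Ccr9, known from plasmacytoid dendritic cells and gut-homing lymphocytes, was at 931 ± 393 in plasmacytoid dendritic cells. Ccr10 was highest in plasma cells at 30.0 ± 18.3, a type where that receptor guides cells to mucosal surfaces. Ccl17 was at 398 ± 227 in type 2 conventional dendritic cells and Ccl22 at 956 ± 549 in mature dendritic cells, both ligands of Ccr4. Ccr4 itself was at 69.6 ± 14.9 in regulatory T cells, where it stood at 45.8 to 80.1 CPM in the p16-DTR-labelled libraries and at 65.6 to 83.9 in the controls. Ccl25 had a nearly flat profile, with a median of 16.2 CPM over 34 types and at most 35.6 CPM.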
